A study of Mus musculus with 21 samples.

Results

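Genes that mark deep-layer neurons of the mouse cerebral cortex were followed through brain tissue of lincRNA knockout mice. The 8 genes, Tbr1, Foxp2, Tle4, Sox5, Bcl11b, Fezf2, Etv1 and Crym, were selected by symbol, from a list drawn up with earlier results of these data known. All 8 were found in the table of the linc-Brn1b strain, among 40770 gene entries, and in that of the Peril strain, among 42760.

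Libraries for mRNA-seq were made from total RNA of 21 samples in 10 groups. The linc-Brn1b strain gave embryonic telencephalon (E13.5, E15.5) and postnatal whole brain (P7), the Peril strain embryonic whole brain (E18.5), and the Fendrr strain embryonic lung (E14.5). In each strain wild-type mice (+/+) were compared with homozygous mutants (-/-) in which a lacZ cassette replaces the lincRNA gene in the germline, so every cell of the body carries the deletion. Each strain is 1 targeted allele. The labels call the Peril strain linc-Sox2 and the Fendrr strain linc-Foxf1a. The labels give 3 samples to the E15.5 group of linc-Brn1b mutants and 2 to each other group. The article gives fewer for that mutant group, and which libraries its value pools is not known. Each group has 1 expression value per gene in the deposited tables, in FPKM (sequenced fragments per length of transcript, scaled to the size of the library). The spread between animals and the depth are therefore unknown, every value below is the authors' group value without an error, and no difference was tested here.

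Deep-layer neurons are the first projection neurons that the cortical progenitors produce. Those of layer 6 send axons mainly to the thalamus, and those of layer 5 to the brainstem and spinal cord. The identity of these cells is set by transcription factors that repress each other across layers, with Tbr1 favouring the corticothalamic fate, and Fezf2 and its effector Bcl11b the subcerebral fate. linc-Brn1b lies next to Pou3f3 (Brn1), a POU factor of upper-layer neurons.

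On mm9, in the coordinates of the tables, the genes lie on 6 chromosomes. Tbr1 spans chr2:61642510-61652170 on the plus strand and Fezf2 chr14:13174406-13178379 on the minus strand, with 5 exons in its only annotated transcript. Foxp2 spans chr6:14851349-15391977 on the plus strand, and Sox5 lies on the same chromosome at chr6:143774938-144730497 on the minus strand. Bcl11b (chr12:109148613-109241624, minus strand) and Etv1 (chr12:39506845-39594802, plus strand) also share a chromosome. Tle4 lies at chr19:14522562-14672473 and Crym at chr7:127329898-127345502, both on the minus strand. Sox5 has 14 annotated transcripts and Foxp2 19, and an FPKM value of a gene sums over its transcripts.

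The 250 bases before a RefSeq start of Fezf2 and of Sox5 are shown, because these are the 2 genes of the 8 with the most similar expression profile (described further on). Coordinates are on GRCm38.p6, both genes are on the minus strand, and each sequence reads 5′ to 3′ in the direction of transcription with CpG dinucleotides in capitals. The Fezf2 window is chr14:12345866-12346115 and the Sox5 window is chr6:143947107-143947356.
Fezf2: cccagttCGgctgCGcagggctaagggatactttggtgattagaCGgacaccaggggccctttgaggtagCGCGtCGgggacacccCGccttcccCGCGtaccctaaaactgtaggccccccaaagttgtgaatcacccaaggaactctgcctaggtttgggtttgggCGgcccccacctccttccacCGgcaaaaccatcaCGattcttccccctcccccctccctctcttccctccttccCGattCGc
Sox5: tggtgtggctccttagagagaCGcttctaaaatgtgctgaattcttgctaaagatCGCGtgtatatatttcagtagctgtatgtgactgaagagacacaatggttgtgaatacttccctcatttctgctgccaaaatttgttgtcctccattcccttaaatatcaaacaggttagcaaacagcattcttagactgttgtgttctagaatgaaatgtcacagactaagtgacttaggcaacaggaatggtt
The 2 windows differ in composition. The Fezf2 window holds 14 CpG dinucleotides and 61.2% G and C, and the Sox5 window holds 3 and 39.6%, against medians of 6 CpG and 52.4% over 32851 RefSeq promoter windows of the same length. Sox5 spans 955560 bases on mm9 and has 14 annotated transcripts. How far the window shown lies from the 5′ end of Sox5 was not determined, so it may stand before an internal start. Windows were at hand for 6 of the 8 genes (8 windows), all but Foxp2 and Crym. In those of Tle4 the CpG number was 24 and 35. Exact letters of 6 motifs were searched on both strands, and none of the 8 windows held any of them. The motifs were the POU octamer ATGCAAAT (in 1.60% of all windows), a T-box site AGGTGTGA (1.12%), a SOX site AACAATG (3.29%), a forkhead site TGTTTAC (3.17%), an ETS site CCGGAAGT (2.88%) and a proneural E-box CAGATGG (4.44%). The values are summed over transcripts and do not show which start was used.

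The labels were first checked against the targeted genes. linc-Brn1b was at 1.60, 2.498 and 0.799 FPKM in wild type at E13.5, E15.5 and P7, and was listed at 0 in the knockout at each age. Its neighbour Pou3f3 was at 81.5, 82.5 and 22.7 FPKM in wild type, against 36.5, 29.2 and 5.81 in the knockout. The entry that overlaps Peril read 4.65 FPKM in the libraries labelled knockout and 0.0109 in wild type. This goes against the label. The entry may lie partly outside the deletion, and which of its 2 columns is wild type was read from the header order used in the other tables. Whether the groups were exchanged was not tested, and an exchange would turn each direction given for Peril, so these libraries are called by their label throughout. All 4 genes of a Y-linked set (Uty, Kdm5d, Eif2s3y, Ddx3y) were present in 1 genotype only. In the E13.5 wild type they lay between 8.23 and 16.5 FPKM, and in the E13.5 knockout at 0.00723 at most. The order was the opposite at E15.5 (at most 0.00554 in wild type, 2.53 to 9.94 FPKM in knockout), at P7 (at most 0.0122, then 2.07 to 11.7 FPKM) and in the Peril table (at most 0.0184, then 2.90 to 13.2 FPKM). Genotype and sex of the embryos or pups therefore cannot be told apart in any difference between genotypes given below. The same holds for age and sex between E13.5 and E15.5, since these genes summed to 49.2 and 0.00662 FPKM at the 2 ages in wild type and to 0.0133 and 21.005 FPKM in knockout.

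In wild-type telencephalon at E13.5, Tbr1 had the highest value of the 8 genes, at 66.4 FPKM. It was followed by Bcl11b at 42.8, Fezf2 at 30.4, Sox5 at 29.5 and Tle4 at 23.8 FPKM. Etv1 at 10.8, Foxp2 at 9.51 and Crym at 4.44 FPKM were the lowest. FPKM is a value per transcript length, so these levels can be ordered across genes, but without replicates neighbours in the order cannot be told apart. At E15.5 Tbr1 was again first, at 77.7 FPKM, and Crym had passed Foxp2 and Etv1. In P7 brain the order was another one, with Crym first at 79.0 FPKM and Fezf2 last at 9.999 FPKM.

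**Figure D1:**
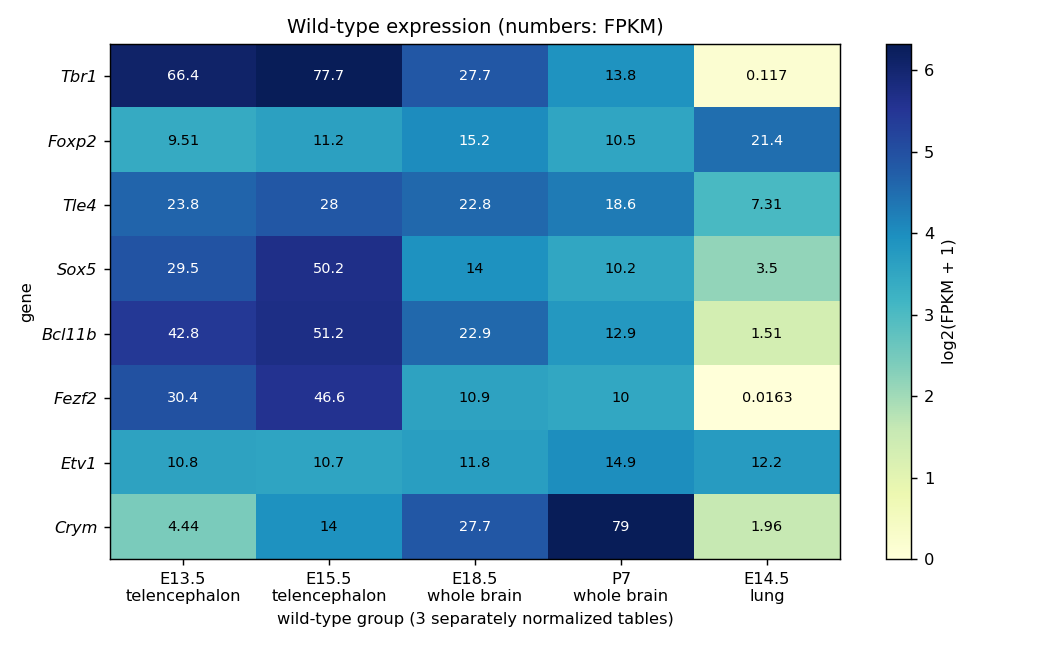
Wild-type FPKM of the 8 genes (rows) in 5 wild-type groups (columns), 1 value per group, coloured by log2(FPKM + 1). Tbr1 and Fezf2 are at 66.4 and 30.4 FPKM in E13.5 telencephalon, at 13.8 and 9.999 FPKM in P7 brain and at 0.117 and 0.0163 FPKM in lung. Foxp2 and Etv1 are at 21.4 and 12.2 FPKM in lung. The linc-Brn1b, Peril and Fendrr tables were normalized separately.

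The lung of E14.5 wild-type embryos served as another organ, with the limit that its table was normalized separately. Tbr1 (0.117 FPKM) and Fezf2 (0.0163 FPKM), factors of glutamatergic cortical neurons, were close to 0 there. Bcl11b was at 1.51, Crym at 1.96, Sox5 at 3.50 and Tle4 at 7.31 FPKM. Foxp2, a forkhead factor that the developing airway epithelium also uses, was at 21.4 FPKM, and Etv1 at 12.2 FPKM. Only part of the 8 genes was thus close to absent in a tissue without cortical neurons. Within the brain, too, several of them are made elsewhere: Bcl11b and Foxp2 are known in striatal medium spiny neurons. In bulk tissue, fewer cells of a type and less RNA per cell cannot be told apart.

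The corticothalamic regulators were followed over the 3 ages. Tbr1, the T-box factor of early-born layer 6 neurons, was at 66.4, 77.7 and 13.8 FPKM in wild type, given here and below in the order of age (E13.5, E15.5, P7). In the knockout it was at 79.6, 75.9 and 18.2 FPKM. Foxp2 was at 9.51, 11.2 and 10.5 FPKM in wild type, with 11.8, 11.4 and 10.04 in the knockout. Its 6 values thus stayed within a narrow range, unlike those of Tbr1. Tle4, a corepressor of the Groucho family found in corticothalamic neurons, was at 23.8, 28.03 and 18.6 FPKM in wild type, with 24.6, 28.7 and 18.6 in the knockout. Tle4 differed little between the genotypes, with log2 differences of 0.05, 0.03 and -0.00 at the 3 ages. Sox5, a SoxD factor that orders the production of deep-layer neuron types, was at 29.5, 50.2 and 10.2 FPKM in wild type. Its knockout values were 42.5, 51.7 and 10.0035 FPKM, so the groups stood apart at E13.5 and lay close together afterwards.

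The genes of layer 5 and the subcerebral neurons were followed next. Fezf2, the zinc finger factor required for subcerebral identity, was at 30.4, 46.6 and 9.999 FPKM in wild type. Its knockout values of 44.4, 53.4 and 13.2 FPKM were higher at all 3 ages. Bcl11b (Ctip2), needed for corticospinal axon outgrowth, was at 42.8, 51.2 and 12.9 FPKM in wild type, with 53.2, 49.5 and 14.8 in the knockout. Etv1 (Er81), an ETS factor of layer 5, was at 10.8, 10.7 and 14.9 FPKM in wild type, against 13.8, 12.02 and 18.2 in the knockout. Etv1 was higher in the knockout group at each age, but relative to the cortical projection neuron genes it was lower at E13.5 (-0.036), where Fezf2 was still higher (0.17). Crym, a cytosolic thyroid hormone binding protein that labels subcerebral neurons, was at 4.44, 13.98 and 78.97 FPKM in wild type, against 3.27, 20.4 and 112 in the knockout. Its genotype order at E13.5 was opposite to that at the later ages.

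**Figure D2:**
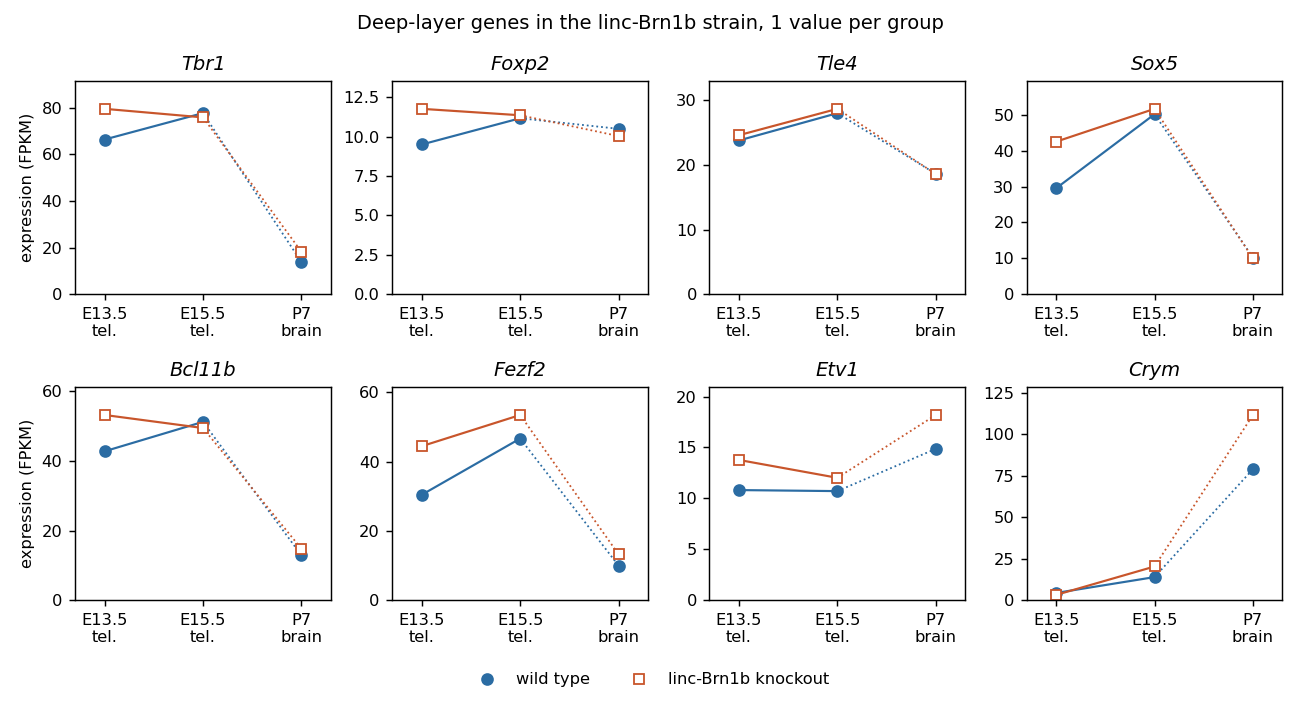
FPKM of each gene in telencephalon (E13.5, E15.5) and in P7 whole brain, 1 point per group, wild type as filled circles and linc-Brn1b knockout as open squares. Dotted lines join groups that differ in tissue as well as age. Tbr1, Sox5, Bcl11b and Fezf2 are lowest at P7 in both genotypes, and Crym is highest there, at 79.0 and 112 FPKM.

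Differences are given below on the scale log2(FPKM + 1), which understates those of low genes. They were called past the fold where FPKM + 1 differed by at least 1.5 times, among genes with a mean of at least 1 FPKM over both groups. All 8 genes passed that minimum in each comparison. At E13.5, 7 of the 8 genes were higher in the linc-Brn1b knockout and the median of their differences was 0.29. Relative to the cortical projection neuron genes, whose median was subtracted, 2 (Fezf2 and Sox5) were higher and the median was -0.063. On that scale Etv1 was slightly negative, and 10.1% of all genes lay above Etv1, so at most that share was higher. Without that subtraction, the median over all 13507 expressed genes was 0.06, and 58.9% of them were higher in the knockout. None of the 8 genes was past the fold, against 1.55% of all genes higher and 5.52% lower by that fold. Fezf2 was closest, at 44.4 against 30.4 FPKM (log2 difference 0.53), with 290 of the 13507 genes above it. Sox5 followed, at 42.5 against 29.5 FPKM (0.51), with 336 genes above it. Both lay outside the range of -0.61 to 0.42 that holds the 5th to the 95th percentile of all genes. The other 6 genes lay inside it, from Crym at -0.35 to Etv1 at 0.32.

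The general cortical projection neuron genes were higher at E13.5 as well, 6 of 7 of them, with a median of 0.36 and a summed level of 434 FPKM in wild type against 540 in knockout. Neurod6, a bHLH factor of postmitotic projection neurons, was at 153 and 219 FPKM, and Emx1, a homeobox factor of the cortical primordium, was the exception at 47.97 and 41.9 FPKM. This median of 0.36 is what centring on these genes subtracted. Progenitor markers had a median of -0.06, with summed levels of 1305 and 1280 FPKM, interneuron markers one of 0.18 and striatal markers one of 0.01. The part of these other cells in the difference of the 8 genes was not tested.

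The genotypes lay closer together at E15.5. The median difference of the 8 genes was 0.04, and 6 of them were higher in knockout. Relative to the cortical projection neuron genes 4 of 8 were higher. Sox5 was the lowest of those 4 and Tle4 the next below, with 27.9% and 32.5% of all genes above them. Without that centring, the median over all 13521 expressed genes was 0.005, and 53.5% of them were higher. No gene of the 8 was past the fold, against 0.2% of all genes higher and 0.274% lower. Crym was at 20.4 FPKM in knockout and 13.98 in wild type, a log2 difference of 0.51, and only 32 of 13521 genes had a higher one. Fezf2 at 0.19 and Etv1 at 0.15 also lay above the 5th to 95th percentile range of -0.13 to 0.13. Tbr1 (-0.03), Foxp2 (0.02), Tle4 (0.03), Sox5 (0.04) and Bcl11b (-0.05) were inside it. The choroid plexus genes Ttr (231 against 1.39 FPKM) and Folr1 (3.82 against 0.290 FPKM) were lower in the knockout group at this age, and striatal markers summed to 116 and 112 FPKM. Whether choroid plexus in the wild-type dissection bears on the 8 genes was not tested.

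At P7 the whole brain was used. Of the 8 genes 5 were higher in the knockout, or 7 relative to the cortical projection neuron genes, and their median difference was 0.23 (0.26 after that centring). Sox5 (-0.026) and Tle4 (-0.003) changed side, since the median subtracted was -0.027, of a list from -1.47 (Neurod1) to 0.86 (Slc17a7). Of all genes 56.8% lay above Sox5, the lowest of those 7, and 62.4% above Foxp2. Without centring, the median over all 14175 expressed genes was 0.01, and 52.2% of them were higher. Again none of the 8 was past the fold, against 2.08% of all genes higher and 2.24% lower. Crym had the highest difference, at 0.49 (112 against 79.0 FPKM), and 490 of 14175 genes were above it. Tbr1 (18.2 against 13.8 FPKM, 0.38) and Fezf2 (13.2 against 9.999 FPKM, 0.37) came next, both within the range of -0.42 to 0.43 of all genes. Etv1 was at 0.27 and Bcl11b at 0.18. Foxp2 (-0.06), Sox5 (-0.03) and Tle4 (-0.00) were close to 0. A rise at P7 was not particular to deep-layer genes. Of 12 upper-layer genes 10 were higher in the knockout, with a median of 0.16, and only Pou3f3 was past the fold, lower. Upper-layer genes were higher in 7 of 10 cases at E13.5 (median 0.09) and in 5 of 12 at E15.5 (median -0.08).

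**Figure D3:**
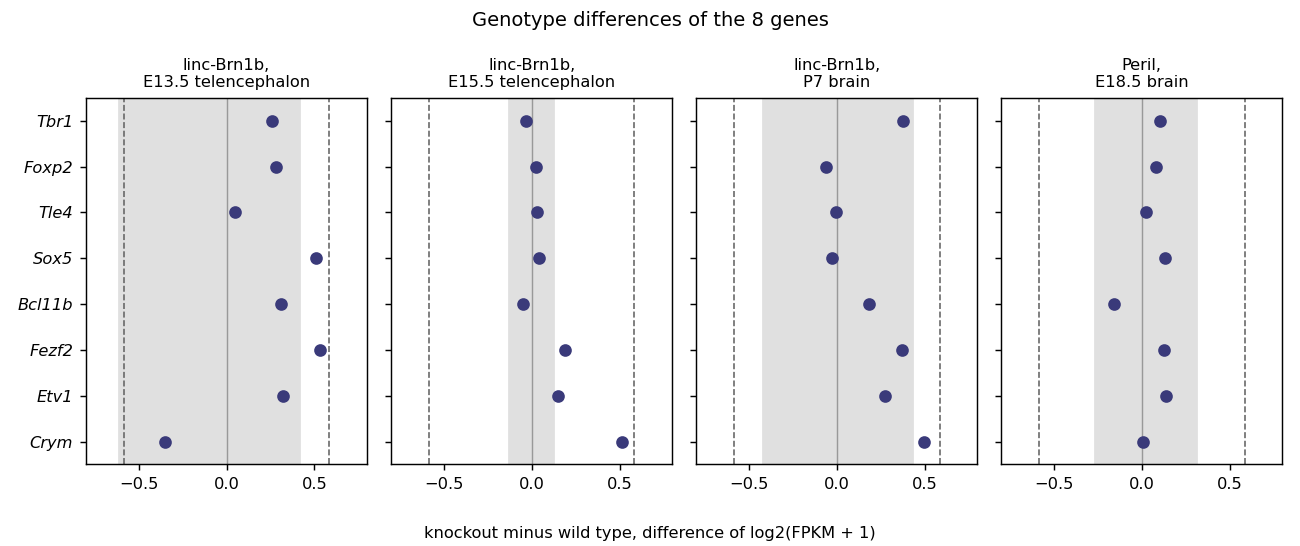
Difference of log2(FPKM + 1), knockout minus wild type, of each gene in 4 comparisons, 1 point per gene. Grey bands hold the 5th to 95th percentile of all expressed genes and dashed lines mark a fold of 1.5. No gene reaches a dashed line, and Fezf2 and Sox5 at E13.5, Fezf2, Etv1 and Crym at E15.5 and Crym at P7 lie outside the band. Relative to the cortical projection neuron genes the points move by 0.36 to the left at E13.5 and by 0.16 in the Peril panel.

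Marker levels of several other cell types differed between the genotypes in the P7 samples. Cell content, dissection, sex and RNA per cell cannot be told apart in these values. All 8 expressed cerebellar markers were lower in knockout, 7 of them past the fold, and the list summed to 131 FPKM in wild type against 66.6 in knockout. Pcp2, specific to Purkinje cells, was at 14.7 and 1.48 FPKM. All 6 glial markers were lower as well, 4 past the fold, with sums of 681 and 408 FPKM, and Mbp, of myelin, was at 292 and 161 FPKM. Of the 12 striatal markers 10 were higher, with sums of 189 and 250 FPKM and the dopamine receptor gene Drd1a at 4.15 and 7.62 FPKM, while Ebf1 was lower past the fold, at 6.35 and 2.04 FPKM. Of 9 expressed progenitor markers 7 were lower, 4 past the fold, with sums of 149 and 96.6 FPKM. All 6 interneuron markers were higher by less than the fold (sums 318 and 374 FPKM). Cortical projection neuron genes had a median of -0.03, with Slc17a7, the vesicular glutamate transporter, at 102 and 187 FPKM and Neurod1, which cerebellar granule cells also express, at 25.03 and 8.37 FPKM. Whether what lies behind the cerebellar, glial and progenitor marker levels bears on the P7 differences of the 8 genes was not tested.

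**Figure D4:**
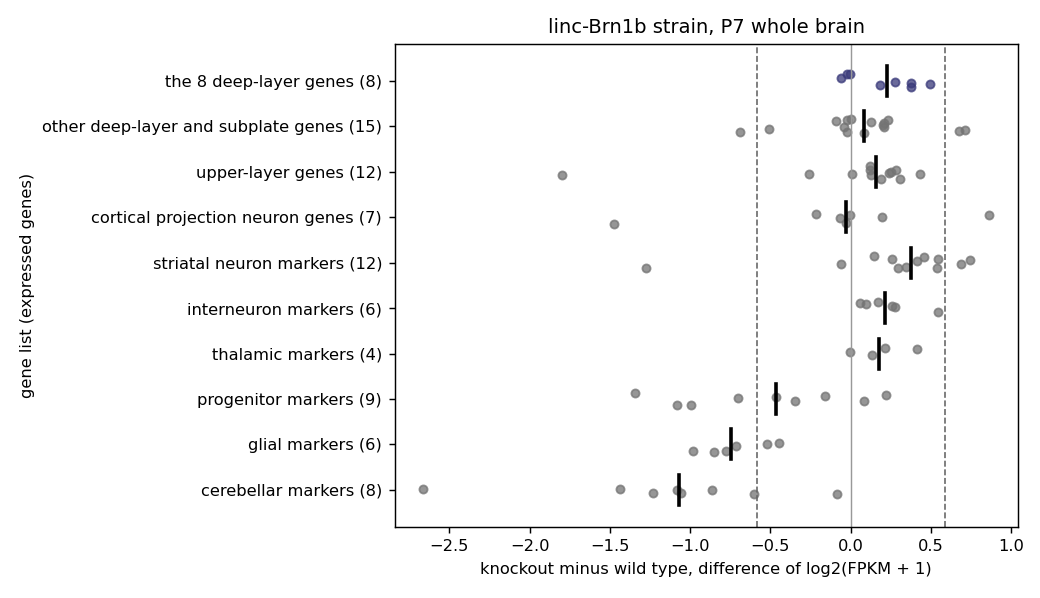
Knockout minus wild-type difference of log2(FPKM + 1) in P7 whole brain for the 8 deep-layer genes (top row, blue) and 9 other lists (grey). Each point is an expressed gene, the number of genes stands in brackets, black bars are medians and dashed lines mark a fold of 1.5. The 8 genes have a median of 0.23, striatal markers 0.38, glial markers -0.75 and cerebellar markers -1.07.

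Other deep-layer and subplate genes were read from a list of 17, of which 16 were in the tables and 15 were expressed in the linc-Brn1b comparisons. At E13.5, 9 of the 15 were higher in knockout with a median of 0.05, and none was past the fold. Syt6, a synaptotagmin gene of corticothalamic neurons, was at 4.90 FPKM in wild type and 6.68 in knockout, and Ctgf, a subplate gene, at 2.25 and 1.22 FPKM. At E15.5, 10 of 15 were higher with a median of 0.04, none past the fold, and Rprm, of layer 6, was at 90.0 and 106 FPKM. At P7, 9 of 15 were higher with a median of 0.09. There 2 were past the fold in the higher direction, the nuclear receptor Nr4a2 (8.73 and 14.9 FPKM) and Ctgf (7.58 and 12.7 FPKM), both of the subplate, and 1 in the lower direction, Nxph4 (7.81 and 4.46 FPKM).

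Among regulators and paralogs of the 8 genes, 10 of 13 were higher in knockout at E13.5 (median 0.16) and 5 of 13 both at E15.5 (median -0.01) and at P7 (median -0.05). None was past the fold at any of the 3 ages. Eomes, a T-box factor of intermediate progenitors, was at 57.2 FPKM in wild type and 78.7 in knockout at E13.5, and Lhx2, a LIM homeobox factor, was at 18.1 and 22.6 FPKM at P7.

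The embryonic ages were then compared within each genotype, in telencephalon only. Sex differed along with age, in opposite order in the 2 genotypes, and cannot be told apart from it. In wild type, 7 of the 8 genes were higher at E15.5 than at E13.5, with a median log2 difference of 0.24, and 3 were past the fold, Crym, Sox5 and Fezf2. Relative to the cortical projection neuron genes, whose own median was 0.41, those 3 genes were higher and the median was -0.17. At most 24.6% of all genes were higher on that scale, the share above Bcl11b, the next of the 8. Only Crym was then past the fold, against 32.0% of all genes in either direction. Without that centring, the share of all 13539 genes past the fold was 8.66% higher and 8.06% lower. Crym was 3.15 times higher in FPKM, with a log2 difference of 1.46 that 81 genes exceeded. Sox5 (1.70 times, 0.75) and Fezf2 (1.53 times, 0.60) were within the 5th to 95th percentile range of -0.74 to 0.75. Etv1 was at 10.8 and 10.7 FPKM, and Tbr1, Foxp2, Tle4 and Bcl11b had differences of 0.21 to 0.25.

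In the knockout 4 of the 8 genes were higher at E15.5, with a median of 0.08. Relative to the cortical projection neuron genes 1 was higher, with a median of -0.27. At most 24.3% of all genes were higher on that scale, the share above Sox5, the next of the 8. Without that centring Crym alone was past the fold, where 10.4% of all 13569 genes were higher and 7.56% lower by that fold. Crym was 6.23 times higher at E15.5, with a log2 difference of 2.32 that 28 genes exceeded. Sox5 had 0.28 and Fezf2 0.26, and Tbr1 (-0.07), Foxp2 (-0.05), Bcl11b (-0.10) and Etv1 (-0.18) were lower at E15.5. The difference of the genotype differences between E15.5 and E13.5 was negative for 7 genes, from -0.01 for Tle4 to -0.47 for Sox5, and 0.86 for Crym, but relative to the cortical projection neuron genes it was negative for only 3 genes (Sox5 -0.15, Bcl11b -0.041, Fezf2 -0.023) and positive for 5. That it is other than 0 was not tested for any gene.

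**Figure D5:**
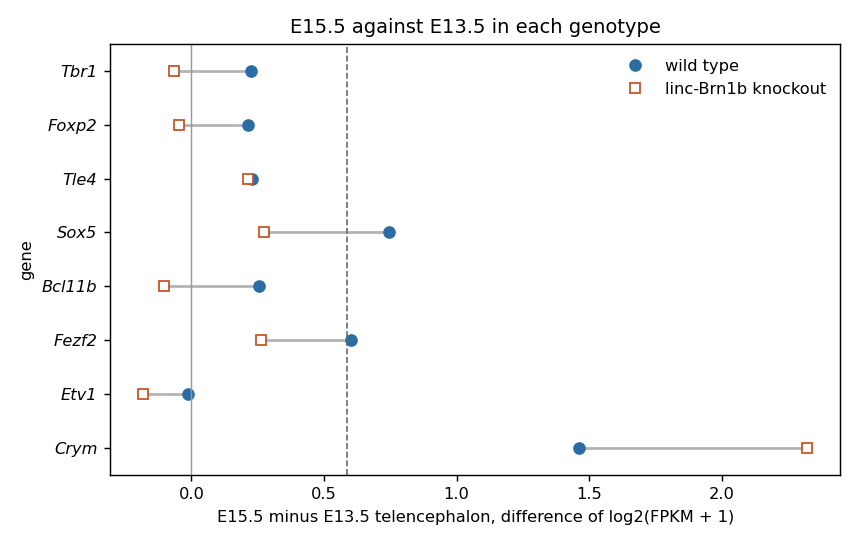
Difference of log2(FPKM + 1) between E15.5 and E13.5 telencephalon for each gene, in wild type (filled circles) and linc-Brn1b knockout (open squares), with a dashed line at a fold of 1.5. Grey lines join the 2 values of a gene. Sox5, Fezf2 and Crym pass the line in wild type and Crym in knockout, before centring on the cortical projection neuron genes.

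Other deep-layer genes showed age differences in both directions. In wild type 5 of 15 were past the fold in the higher direction and 4 in the lower, with Pcp4, a calmodulin regulator of layer 5 neurons, at 31.4 FPKM at E13.5 and 77.3 at E15.5, and the homeobox gene Otx1 at 14.6 and 7.63 FPKM. In knockout the numbers were 6 and 2, with Pcp4 at 30.8 and 81.3 FPKM. Progenitor markers were lower at E15.5 in wild type in 10 of 10 cases, 8 past the fold, and Nes was at 132 and 55.2 FPKM. Striatal markers were higher in 11 of 12 cases, 8 past the fold.

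From E15.5 telencephalon to P7 whole brain, age and dissected tissue differ together. In wild type the FPKM of Tbr1 was 5.63 times lower at P7, that of Sox5 4.92 times, of Fezf2 4.66 times and of Bcl11b 3.96 times. In knockout the same genes were 4.17, 5.16, 4.03 and 3.34 times lower. Tle4 was 1.504 times lower in wild type and Foxp2 1.06 times. Etv1 was 1.39 times higher and Crym 5.65 times higher. Crym thus made up 2.04% of the summed FPKM of the 8 genes in wild type at E13.5 and 46.5% at P7, while Tbr1 went from 30.5% to 8.13%.

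Similarity of the profiles over the 6 linc-Brn1b groups was measured as the root mean square (RMS) distance between log2(FPKM + 1) values centred per gene. Compared were 12248 genes with a mean of at least 1 FPKM over the 6 groups. Entries with no symbol, or with a Gm, RIKEN, linc, XLOC or clone-type name, were left out. The 6 groups are points of only 3 ages, so the distance reflects age and tissue along with genotype. Fezf2 and Sox5 were closest, at 0.15, followed by Bcl11b and Fezf2 at 0.18, and by Bcl11b and Tbr1, and Foxp2 and Tle4, both at 0.20. These distances differ in how common they are: 2 genes were closer to Fezf2 than Sox5 was and 38 closer to Tbr1 than Bcl11b was, but 2399 of the 12248 genes compared were closer to Foxp2 than Tle4 was. Crym was 1.61 or more from each of the others. Among these 12248 named genes, the nearest to Fezf2 was the POU gene Pou3f2 (Brn2), with 20.2 and 30.6 FPKM in the E13.5 wild type and knockout, 27.4 and 29.9 in the E15.5 pair, and 5.46 and 7.71 in the P7 pair. Nuak1 and Sox5 came next. Nearest to Sox5 was Neurod2, followed by Zscan2 and Zfp558, and nearest to Tbr1 was Dlx1, a factor of interneurons and not of Tbr1 neurons, followed by Zfp663 and Zfp773. Bcl11b was nearest to Zfp454, Plxna2 and Nfya, Etv1 to Pde1b, Lpin2 and Dffa, and Crym to Scrg1, Fabp3 and Caln1. Foxp2 had Exoc3 and Acox3 among its nearest genes and Tle4 had Trafd1 and Degs2. By Pearson correlation only 2 of the 24 nearest genes (3 for each of the 8) were found again, and 4 of 24 from the wild-type groups only.

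In the E18.5 brain of the Peril strain, the log2 differences of the 8 genes lay between -0.16 and 0.14. Tbr1 was at 27.7 FPKM in wild type and 29.8 in the libraries labelled knockout, Fezf2 at 10.9 and 12.05, Sox5 at 14.001 and 15.4, and Etv1 at 11.8 and 13.03 FPKM. Foxp2 (15.2 and 16.1 FPKM), Tle4 (22.8 and 23.2 FPKM) and Crym (27.7 FPKM in both) were close to equal. Bcl11b, at 22.9 and 20.5 FPKM, was the only gene lower in the libraries labelled knockout, with a log2 difference of -0.16. Relative to the cortical projection neuron genes all 8 were lower. So were at least 81.2% of all genes, the share below Etv1, the highest of the 8. The median of the 8 differences was 0.09, or -0.070 after that centring, which subtracts 0.16. No gene was past the fold, against 0.958% of all genes higher and 0.666% lower. All 8 lay within the 5th to 95th percentile range of -0.27 to 0.31. Of 14 other deep-layer genes expressed there, 8 were higher, the median was 0.01 and none was past the fold. Glial markers summed to 67.5 and 83.4 FPKM and cerebellar markers to 109 and 92.2 FPKM in wild type and the libraries labelled knockout, and their part in the small differences of the 8 genes was not tested.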

How the data were processed

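RNA of 21 samples was prepared with the TruSeq kit and sequenced as paired-end 101 bp reads. Reads were aligned by the authors to mm9 with Tophat2, assembled with Cufflinks (version 2.0.2 per the labels' processing notes) and compared with Cuffdiff2. The deposited values used here are FPKM, scaled across libraries by the authors with Cuffdiff2 and pooled to 1 value per group, in 3 tables that were normalized separately. No column holds a value per library (0 columns). Columns with the authors' own fold changes, test statistics, p-values and q-values were not used, since they are the study's own findings. From the FPKM values alone no standard deviation, interval, detection floor or test could be computed.

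Groups were taken from the sample labels. The linc-Brn1b table repeats the values of its groups in 24 columns of other comparisons, which were not read. Differences were computed as log2(FPKM + 1) with a pseudocount of 1, genes needed a mean of 1 FPKM over both groups, and the fold threshold was 1.5 in FPKM + 1. Python 3.11.15, numpy 2.4.6 and pandas 2.3.3 were used, and the steps were checked on test values with known answers. The 8 genes, the 12 lists of other genes and the comparisons were chosen with earlier results of these data known. From each list up to 4 genes a comparison were named, those with the highest and lowest difference and, of marker lists, defining markers, and the 3 genes of most similar profile per gene. Some genes that these rules select are not reported here. Starts in the tables count from 0, and 1 was added. Promoter windows are from RefSeq on GRCm38.p6, trimmed to the 250 bases before the start. Alternatives were pseudocounts of 0.1 and 0.01, fold thresholds of 0.32 and 1 on the log2 scale, a minimum of 5 FPKM or none, and centring on all expressed genes or on the cortical projection neuron genes.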

Additional observations from a re-analysis of the deposited data

How the results depend on the processing

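No paired analysis was possible because the tables hold 1 value per group, and for the same reason no sample could be left out. Centring on the cortical projection neuron genes moved most values. The median difference of the 8 genes became -0.063 at E13.5, -0.070 in the Peril brain and -0.27 between the embryonic ages in knockout, and reversed to -0.17 between those ages in wild type. With that centring 1 gene was past the fold at E13.5 (Crym, lower), against 17.4% of all genes. Between the ages in wild type it was also 1 (Crym, higher), against 32.0% of all genes. With the lower fold threshold, 0.32 on the log2 scale, 4 genes were past it at E13.5 (22.5% of all genes), 1 at E15.5 (1.29%) and 3 at P7 (18.6%), and with a fold of 2, 1 was past it between the ages in wild type (4.14%). The medians and the numbers of genes past the fold kept their direction and size under the pseudocounts of 0.1 and 0.01, centring on all expressed genes, and both other minimums. Centred on all expressed genes, 6 and not 7 of the 8 genes were higher at E13.5, since Tle4 turned. Of 383 values of single genes under the alternatives, 370 stayed on their side of the fold, 9 moved past it and 4 moved back.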

Other observations

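The lung of the Fendrr strain also has a knockout group, which enters no comparison above. The targeted lincRNA was at 38.4 FPKM in the wild-type lung and at 0.0450 FPKM in the knockout lung. The deep-layer genes that lung tissue uses were at like values in both groups. Foxp2 was at 21.4 FPKM in the wild type and 19.6 in the knockout, Tle4 at 7.31 and 7.40, Sox5 at 3.50 and 3.33, and Bcl11b at 1.51 and 1.46. Tbr1 (0.117 and 0.0369 FPKM) and Fezf2 (0.0163 and 0.0157 FPKM) were near 0 in both.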
